A study of Caenorhabditis elegans with 6 samples.

Results

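The Hedgehog-related and patched-related genes of the nematode Caenorhabditis elegans were followed in RNA of whole wild-type worms given chaetocin or its vehicle DMSO. Members were chosen by name. Every gene named grd, grl or wrt with a number was taken as Hedgehog-related, and every gene named ptr or ptc with a number as patched-related, with 1 ptr gene left out. These names covered 81 of the 46926 genes in the deposited table. The 57 Hedgehog-related genes were 16 grd, 31 grl and 10 wrt genes, and the 24 patched-related genes were 22 ptr and 2 ptc genes.

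All worms were of the strain N2, genotype wild type, grown in synchrony to the late L4 or young adult stage. Both groups were rotated for 5 hours in buffer with heat-treated OP50 bacteria as food. One group of 3 libraries received 25 µM chaetocin, a fungal compound that is used in cell biology to inhibit histone lysine methyltransferases, and the other group of 3 libraries received DMSO alone. The labels number the libraries of each group as biological replicates 1 to 3 but do not say whether these were separate cultures, so each p-value reflects only the variation among these 6 libraries, which may be technical.

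In other animals Hedgehog is a secreted, lipid-modified signal that binds the membrane protein Patched and so releases Smoothened. C. elegans has neither a typical Hedgehog nor a Smoothened gene. It has instead several families of secreted Hedgehog-related proteins, named groundhog (grd), ground-like (grl) and warthog (wrt), and an expanded set of Patched homologues (ptc) and patched-related proteins (ptr) that carry a sterol-sensing domain. Many of these genes are expressed in the epidermis, in glia and in the cells that line narrow tubes, and loss of many of them disturbs the cuticle, molting or osmotic balance.

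Levels are FPKM, the fragments of a gene scaled by its transcript length and by the library total, so they can be compared between genes. They were brought to a common scale by factors between 0.9769 and 1.0271, and every level below is such a scaled FPKM, given as mean ± SD over 3 libraries or per library in the order of replicates 1, 2 and 3. Differences are log2 fold changes, chaetocin minus DMSO, on the scale log2(FPKM + 0.1), given ± standard error. Fold changes of weakly expressed genes come out too small on this scale. Genes that reached 0.5 FPKM in 3 or more libraries were tested with limma, and a gene was called higher or lower where its Benjamini-Hochberg adjusted p over all 15213 genes tested was under 0.05. Each library listed 18747 to 18933 genes above 0. Correlations of log2 levels were at least 0.9753 within a group and at most 0.9647 between groups. Depth per library is unknown because the tables hold no counts per library.

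The families spanned a wide range of levels. Of the 81 members, 41 passed the filter on low values: 6 of 16 grd, 12 of 31 grl, 6 of 10 wrt, 15 of 22 ptr and 2 of 2 ptc genes. Only 8 members had a mean above 10 FPKM, of which 5 were Hedgehog-related and 3 patched-related. Patched-related RNA was held mostly by ptc-1 (a mean of 125.5 FPKM over the 6 libraries) and ptr-2 (91.1 FPKM), and Hedgehog-related RNA mostly by grd-3 (97.3 FPKM) and grd-5 (93.3 FPKM). By the third highest of each gene's 6 deposited levels, ptr-15 at 0.51, ptr-6 at 0.52 and grl-27 at 0.59 FPKM lay just inside the filter, while grl-17 at 0.48, ptr-18 at 0.47 and grd-15 at 0.46 lay just outside.

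**Figure D1:**
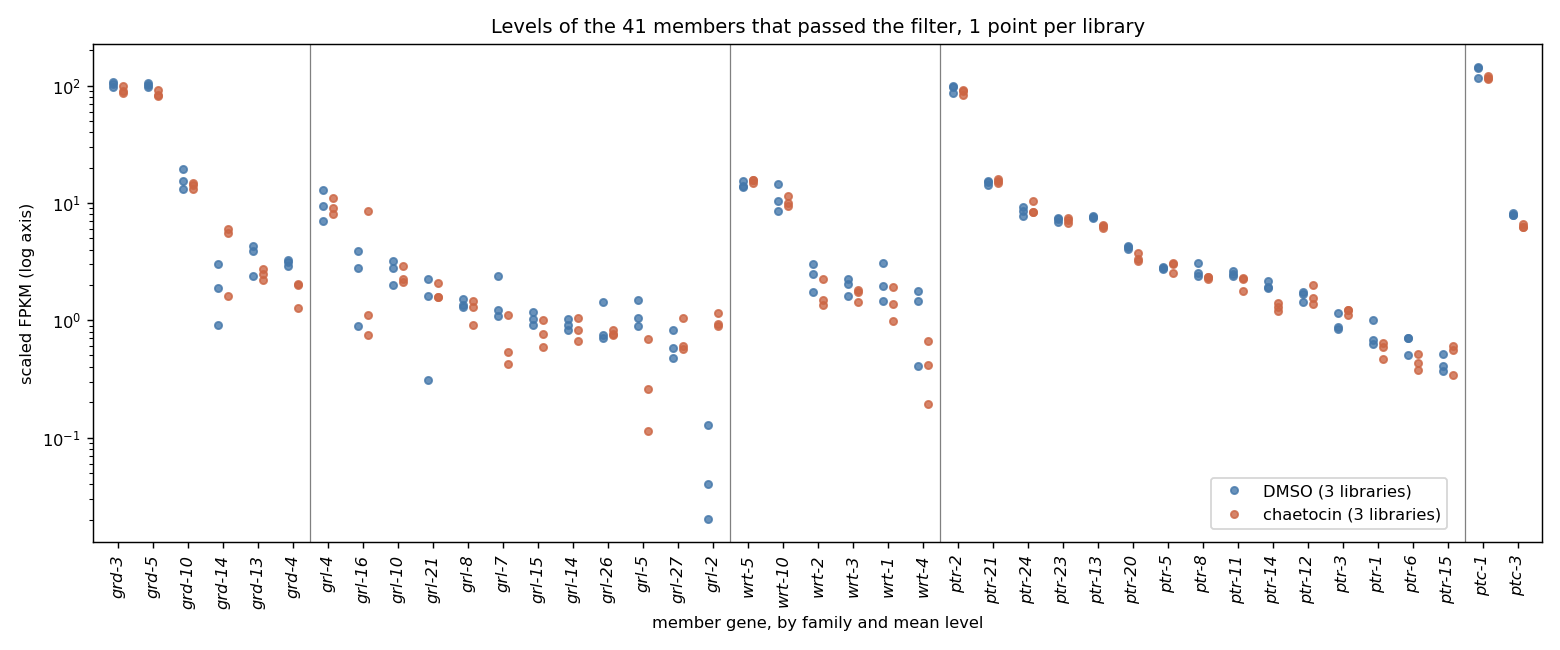
Scaled FPKM (log axis) of the 41 members that passed the filter, with 1 point per library, DMSO in blue and chaetocin in orange, grouped by family and ordered by mean level. Most pairs of groups lie at about the same height, and grl-2 is the gene whose groups are farthest apart.

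Few members changed, and the share was near that of the whole table. Chaetocin raised 1 member, grl-2, and lowered 2, ptc-3 and grd-5. These 3 calls are 7.32% of the 41 members tested, beside 8.45% of all genes tested. Over all genes 5.53% were called higher and 2.92% lower. By group, 1 of the 24 Hedgehog-related genes tested rose and 1 fell (8.33% in all), and of the 17 patched-related genes tested 0 rose and 1 fell (5.88%). At an unadjusted limma p under 0.05, 0 patched-related genes were higher. At that level 9 of the 41 members were lower and 1 was higher, beside 8.78% and 11.7% of all genes.

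Small negative differences were more common than calls. The log2 fold change was below 0 for 30 of 41 members (73.2%), beside 50.1% of all genes tested. Its median was -0.18 over the 41 members and -0.0005 over all genes. By family, the medians over the members that passed the filter were -0.20 for grd, -0.13 for grl, -0.36 for wrt, -0.09 for ptr and -0.25 for ptc. Over the 68 members in the authors' deposited table, which include members below the filter, the medians were -0.19 for 14 grd, -0.004 for 21 grl, -0.24 for 9 wrt, -0.23 for 22 ptr and -0.26 for 2 ptc genes, so the order of the families differed. The patched-related median of -0.18 came to -0.07 without DMSO replicate 1. In 9 of the 41 members (22.0%) every chaetocin library lay below every DMSO library, beside 11.6% of all genes, and in 1 (2.44%) every chaetocin library lay above, beside 14.5%. In whole worms, fewer cells of a type and less RNA per cell cannot be told apart.

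**Figure D2:**
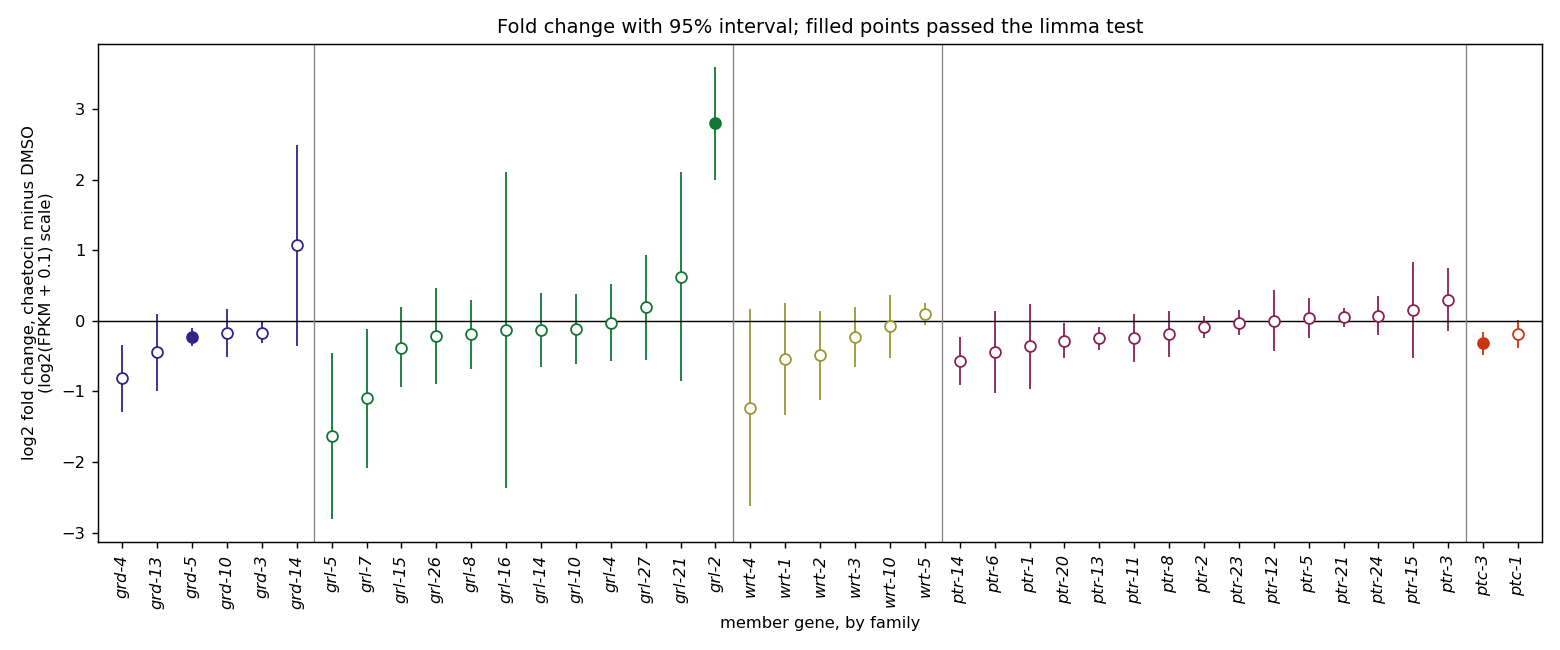
Log2 fold change, chaetocin minus DMSO, of the 41 members tested, with its 95% interval from limma, grouped by family and ordered by size. Filled points passed the test: grl-2 at 2.80, grd-5 at -0.23 and ptc-3 at -0.32. Most open points lie slightly below 0, and their intervals mostly cross it.

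Among the secreted proteins, the grd genes hold most of the RNA. Their levels summed to 221.4, 224.4 and 243.8 FPKM in the DMSO libraries and to 216.4, 198.3 and 191.1 FPKM in the chaetocin libraries, so that every chaetocin sum was below every DMSO sum. The gene grd-5, on chromosome V at 8619032 to 8619870 (plus strand), stood at 101.5, 96.8 and 104.1 FPKM with DMSO and at 91.9, 83.3 and 82.2 FPKM with chaetocin. The groups did not overlap, and the mean went from 101 ± 3.71 to 85.8 ± 5.34 FPKM. Its log2 fold change was -0.23 ± 0.05 (limma adjusted p = 0.04378). This call was at the edge of the threshold. It was lost without DMSO replicate 1, 2 or 3 or chaetocin replicate 2 or 3 (adjusted p between 0.07042 and 0.1408) and held without chaetocin replicate 1 (adjusted p = 0.02083). Without scaling its adjusted p was 0.06214, without a filter 0.05448, without a variance trend 0.1066 and scaled to chaetocin replicate 3 0.05056.

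The other abundant grd genes did not pass the test. In grd-3 the DMSO libraries gave 97.7, 103 and 108 FPKM and the chaetocin libraries 99.2, 89.2 and 86.7 FPKM. The groups overlapped through chaetocin replicate 1, and the log2 fold change was -0.17 ± 0.06 (limma adjusted p = 0.1887). The third most abundant, grd-10, was at 13.04, 15.4 and 19.6 FPKM with DMSO and 13.04, 14.7 and 14.2 FPKM with chaetocin, a difference of -0.18 ± 0.14 (adjusted p = 0.5636). These genes lie side by side on chromosome IV with grd-13, all on the plus strand, with gaps of 147 and 601 bases between neighbours. The remaining gene of that row, grd-13, had 2.37, 3.87 and 4.25 FPKM with DMSO and 2.47, 2.22 and 2.72 FPKM with chaetocin, and its groups also overlapped (-0.45 ± 0.23, adjusted p = 0.3375).

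A second row of neighbours was chosen after its values were seen. On the plus strand of chromosome X, grd-14 ends 184 bases before grd-4 begins. The level of grd-4 was 3.12, 3.27 and 2.92 FPKM with DMSO and 2.02, 1.26 and 1.995 FPKM with chaetocin, with no overlap. Its log2 fold change of -0.81 ± 0.20 missed the threshold (limma adjusted p = 0.0564), was called with a pseudocount of 0.5 (adjusted p = 0.04905) and over the limma settings tried its adjusted p ranged from 0.04905 to 0.1732. For grd-14 the values were 1.89, 0.905 and 3.04 FPKM with DMSO and 5.50, 5.97 and 1.61 FPKM with chaetocin. There, chaetocin replicates 1 and 2 were above all DMSO libraries and replicate 3 was not, and the difference of 1.07 ± 0.60 did not pass (adjusted p = 0.3854).

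The grl genes were low, with 0 members above 10 FPKM, and the log2 fold change of grl-2 was the largest of the 41 members tested by limma. With DMSO it was barely above 0, at 0.0402, 0.0201 and 0.127 FPKM. With chaetocin it was at 1.15, 0.932 and 0.888 FPKM. Every chaetocin library was far above every DMSO library, and the mean rose from 0.0623 ± 0.0566 to 0.991 ± 0.143 FPKM, a ratio of 15.9. The log2 fold change was 2.80 ± 0.34, with a 95% interval from 1.99 to 3.60 (limma adjusted p = 0.002877). It was the 1 member that passed the filter through its chaetocin libraries alone, so it could enter this test only by being higher with chaetocin. In the fit with no filter, where its entry does not rest on the difference, the log2 fold change was 2.79 (adjusted p = 0.002972). This gene is known for its activity in the excretory duct and pore cells, which form the opening of the worm's excretory system. It stayed called without any single library, with log2 fold changes between 2.61 and 3.06. Across the limma settings tried the log2 fold change lay between 1.41 and 4.07, the lower value with a larger pseudocount and the higher with a smaller one. A filter of 1 FPKM removes it from the test.

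The rise of grl-2 was set beside the excretory markers and beside its neighbours on the chromosome. Of 6 excretory markers tested, 0 were called in either direction, beside 8.45% of all genes tested. At an unadjusted limma p under 0.05, 1 was lower and 0 were higher, beside 8.78% and 11.7% of all genes. The markers went both ways, with 3 of 6 log2 fold changes below 0 (median 0.049). Their levels summed to 67.0, 60.9 and 61.8 FPKM with DMSO and 65.5, 61.3 and 61.3 FPKM with chaetocin, which overlap. Most of these sums came from exc-9, exc-4 and aqp-8 (means of 24.1, 19.85 and 11.2 FPKM with DMSO), named after their values were seen. Levels in the duct and pore cells alone were not measured.

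On chromosome V, grl-2 occupies 12945075 to 12946858 on the plus strand. Of 13 protein-coding genes within 15 kb, 11 were tested and 5 rose, beside 5.53% of all genes tested called higher. All 5, named after their values were seen, lie upstream of the start of grl-2 and on the minus strand. The nearest, T16G1.3, starts 0.75 kb away and points in the opposite direction. It was at 0, 0 and 0.0779 FPKM with DMSO and at 0.717, 0.676 and 0.748 FPKM with chaetocin, or 2.75 ± 0.35 on the log2 scale (limma adjusted p = 0.003955). Like grl-2, it passed the filter through its chaetocin libraries alone, and with no filter its adjusted p was 0.002881. With no filter the genes called among all 13 neighbours were again 5 higher and 0 lower. Farther out, T16G1.6 went from 0.955, 0.915 and 1.13 FPKM to 18.5, 20.1 and 17.1 FPKM (4.09 ± 0.12, adjusted p = 6.546e-06). In both genes the groups were wide apart. The log2 fold changes of the other three were 0.93 ± 0.10 for T16G1.4, 2.92 ± 0.19 for T16G1.5 and 1.06 ± 0.07 for T16G1.7.

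On the other side 0 of the 6 tested genes were called. The first of them, T16G1.9, overlaps the last 61 bases of grl-2 on the opposite strand. It had 12.7, 12.1 and 11.3 FPKM with DMSO and 12.6, 13.1 and 14.1 FPKM with chaetocin (0.14 ± 0.07, adjusted p = 0.3518). The sources used here do not give the strand setting of the counting, so reads of the overlap cannot be told apart. The part of the neighbourhood in the change of grl-2 was not tested. Neither ptc-3, with 5 tested neighbours, nor grd-5, with 7, had a called neighbour within 15 kb.

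**Figure D3:**
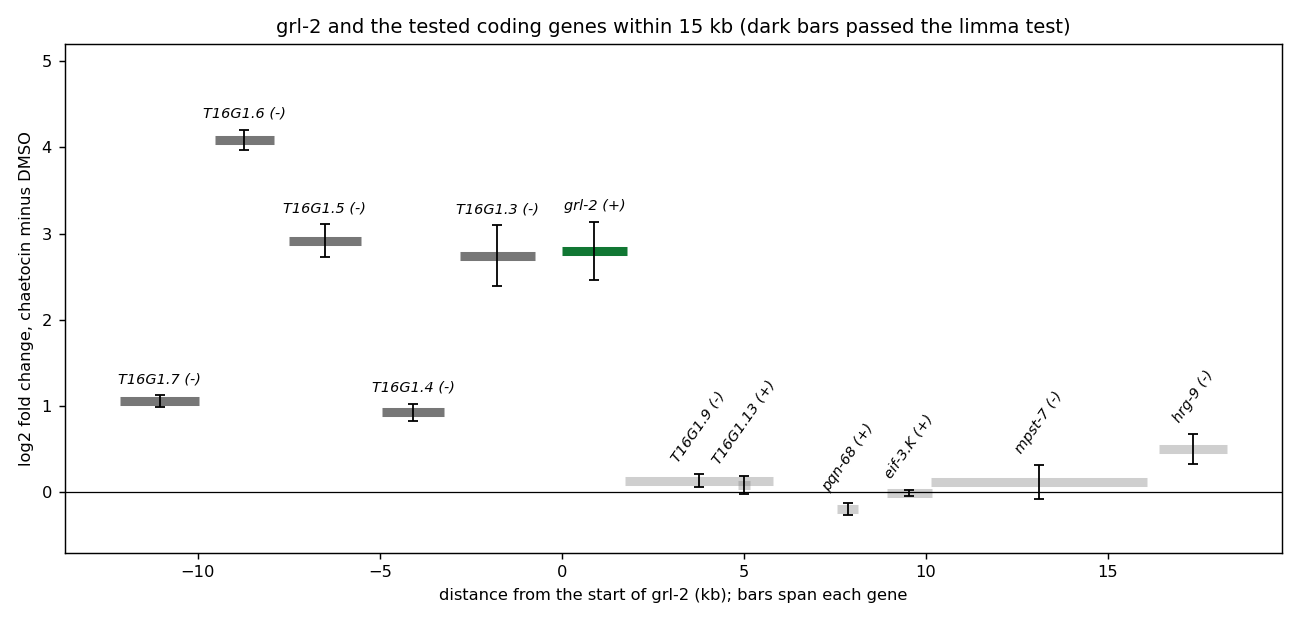
Log2 fold change, chaetocin minus DMSO, of grl-2 (green) and of the 11 tested coding genes within 15 kb, against distance from the start of grl-2 in kb. Horizontal bars span each gene, vertical bars are standard errors and the sign after a name is the strand. The 5 genes upstream lie between 0.93 and 4.09, and the 6 genes downstream between -0.19 and 0.50.

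The most abundant grl genes showed no detectable difference. In grl-4 the levels were 6.98, 9.43 and 12.98 FPKM with DMSO and 9.11, 11.1 and 8.04 FPKM with chaetocin (-0.02 ± 0.23, 95% interval -0.572 to 0.523, adjusted p = 0.967). In grl-10 they were 3.17, 2.00 and 2.78 FPKM with DMSO and 2.11, 2.92 and 2.25 FPKM with chaetocin (-0.11 ± 0.21, adjusted p = 0.8197). The spread within the groups was as large as any difference between them. In the limma fit grl-16 had the largest standard error of the tested members, with 3.91, 2.79 and 0.896 FPKM with DMSO and 8.54, 1.11 and 0.748 FPKM with chaetocin (-0.13 ± 0.94, adjusted p = 0.9571). In both groups it was highest in replicate 1 and lowest in replicate 3. Similarly uneven was grl-21, at 2.26, 0.312 and 1.61 FPKM with DMSO and 1.57, 1.57 and 2.06 FPKM with chaetocin (0.62 ± 0.62, adjusted p = 0.6458).

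The ground-like genes grl-5 and grl-7 had the most negative differences of their family without passing the test. The level of grl-5 was 1.498, 1.03 and 0.896 FPKM with DMSO and 0.259, 0.113 and 0.688 FPKM with chaetocin. The groups did not overlap, and the log2 fold change was -1.64 ± 0.49 (limma adjusted p = 0.1109). Without chaetocin replicate 3, the highest of its group, it was -2.14 and passed (adjusted p = 0.02723, the lowest of a range up to 0.2948 over the limma settings tried). The protein of grl-7 is a component of the matrix that covers epidermal cells and is cleared with the help of the patched-related protein PTR-18. Its RNA was at 2.39, 1.22 and 1.08 FPKM with DMSO and 0.537, 0.420 and 1.097 FPKM with chaetocin. Chaetocin replicate 3 reached into the DMSO range, and the difference was -1.10 ± 0.41 (adjusted p = 0.1965).

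Of the wrt genes 0 of the 6 tested were called by limma in either direction, beside 8.45% of all genes tested. At an unadjusted limma p under 0.05, 0 were lower and 0 were higher, beside 8.78% and 11.7% of all genes. The most abundant, wrt-5, which is needed for development of the epidermis, was at 15.4, 13.8 and 14.04 FPKM with DMSO and at 15.8, 14.8 and 15.5 FPKM with chaetocin (0.09 ± 0.06, 95% interval -0.060 to 0.246, adjusted p = 0.4893). Next came wrt-10, with 10.3, 8.60 and 14.4 FPKM against 11.5, 10.04 and 9.38 FPKM (-0.08 ± 0.19, adjusted p = 0.8566). Both genes overlapped between the groups. The neighbour of wrt-10 on chromosome II is wrt-1, which ends 15 bases from it on the other strand. Its levels were 3.09, 1.45 and 1.95 FPKM with DMSO and 1.37, 1.93 and 0.988 FPKM with chaetocin (-0.55 ± 0.33, adjusted p = 0.428). The seam cell gene wrt-2 gave 2.48, 1.73 and 3.03 FPKM against 2.23, 1.35 and 1.49 FPKM (-0.49 ± 0.26, adjusted p = 0.3753). The most negative of the family, named after its values were seen, was wrt-4, with 1.79, 1.47 and 0.409 FPKM against 0.667, 0.195 and 0.419 FPKM (-1.23 ± 0.58, adjusted p = 0.3051). The groups overlapped in wrt-1, wrt-2 and wrt-4 alike.

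Among the receptors, both ptc genes had negative differences, and 1 passed. The gene ptc-3, a Patched homologue essential for larval development, lies on chromosome II at 2845412 to 2852593 (minus strand). It was at 8.24, 7.81 and 7.87 FPKM with DMSO and at 6.25, 6.58 and 6.27 FPKM with chaetocin. The libraries of each group lay close together with a clear gap between groups, and the mean fell from 7.97 ± 0.236 to 6.37 ± 0.188 FPKM. The log2 fold change was -0.32 ± 0.07, with a 95% interval from -0.485 to -0.156 (limma adjusted p = 0.03556). The call was lost on leaving out any single library (adjusted p between 0.06284 without DMSO replicate 3 and 0.1405 without DMSO replicate 1), while the log2 fold change stayed between -0.295 and -0.344. Its isoforms a and b, at 5.35, 5.13 and 5.23 and at 2.85, 2.64 and 2.85 FPKM as deposited with DMSO, were at 4.3, 4.31 and 3.8 and at 1.98, 2.02 and 2.48 FPKM with chaetocin. Neither transcript passed the test over transcripts (adjusted p = 0.2066 and 0.3434), and RSEM divides fragments between them by estimation.

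The most abundant member, ptc-1, acts in cytokinesis of the germ line. It had 145, 139.9 and 116 FPKM with DMSO and 114, 117 and 121 FPKM with chaetocin. DMSO replicate 3 lay within the chaetocin range, and the difference of -0.18 ± 0.08 did not pass (limma adjusted p = 0.2831). Without DMSO replicate 3 it was -0.28 and passed (adjusted p = 0.01118), while over the limma settings tried its adjusted p ranged from 0.01118 to 0.5713. Of the 8 germline markers tested, 0 were called, beside 8.45% of all genes tested. Their levels summed to 1812, 1849 and 1693 FPKM with DMSO and to 1778, 1765 and 1735 FPKM with chaetocin. DMSO replicate 3 was the lowest there too, but not in every gene. In glh-1, spe-38 and msp-142, named after their values were seen, it was the highest DMSO library. It was also the lowest DMSO library in the muscle, intestinal, adult stage and glial marker sums, but not in the epidermal, excretory or neuronal sums. The part of this library in the result for ptc-1 was not tested.

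Among the 15 ptr genes tested, 0 were called in either direction, beside 8.45% of all genes tested. At an unadjusted limma p under 0.05, 3 were lower and 0 were higher, beside 8.78% and 11.7% of all genes tested. The abundant ptr-2 had 97.6, 98.3 and 85.7 FPKM with DMSO and 83.8, 89.95 and 90.9 FPKM with chaetocin, which overlap (-0.09 ± 0.06, 95% interval -0.238 to 0.063, adjusted p = 0.5075). The genes ptr-21 and ptr-24 also showed no detectable difference. They were at 14.9 ± 0.553 and 8.52 ± 0.796 FPKM with DMSO and 15.4 ± 0.635 and 8.97 ± 1.17 FPKM with chaetocin. Their log2 fold changes were 0.05 ± 0.06 and 0.07 ± 0.12 (adjusted p = 0.7203 and 0.7929). The gene ptr-23, which acts in osmotic regulation, had 7.43, 6.93 and 7.29 FPKM against 7.11, 7.44 and 6.72 FPKM (-0.03 ± 0.08, 95% interval -0.205 to 0.154, adjusted p = 0.8892). For ptr-5 the values were 2.78 ± 0.0400 and 2.87 ± 0.316 FPKM (0.04 ± 0.12, adjusted p = 0.8971).

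The 3 lower ptr genes, named after their values were seen, were ptr-13, ptr-14 and ptr-20. For ptr-13 the libraries gave 7.66, 7.37 and 7.63 FPKM with DMSO and 6.33, 6.16 and 6.54 FPKM with chaetocin (-0.25 ± 0.07, limma adjusted p = 0.08553). For ptr-14 they gave 2.15, 1.88 and 1.93 FPKM against 1.29, 1.41 and 1.21 FPKM (-0.57 ± 0.14, adjusted p = 0.06063). In ptr-20 they were 4.06, 4.19 and 4.25 FPKM against 3.75, 3.17 and 3.33 FPKM (-0.28 ± 0.10, adjusted p = 0.1813). In none of them did the groups overlap, and 11.6% of all genes tested had every chaetocin library below every DMSO library. Both ptr-13 and ptr-14 passed without a variance trend (adjusted p = 0.03213 and 0.01401), and over the limma settings tried their adjusted p reached up to 0.2443 and 0.2108. The ptr sums were 158.2, 156.4 and 143.7 FPKM with DMSO and 139.0, 144.6 and 148.2 FPKM with chaetocin, and these overlap.

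**Figure D4:**
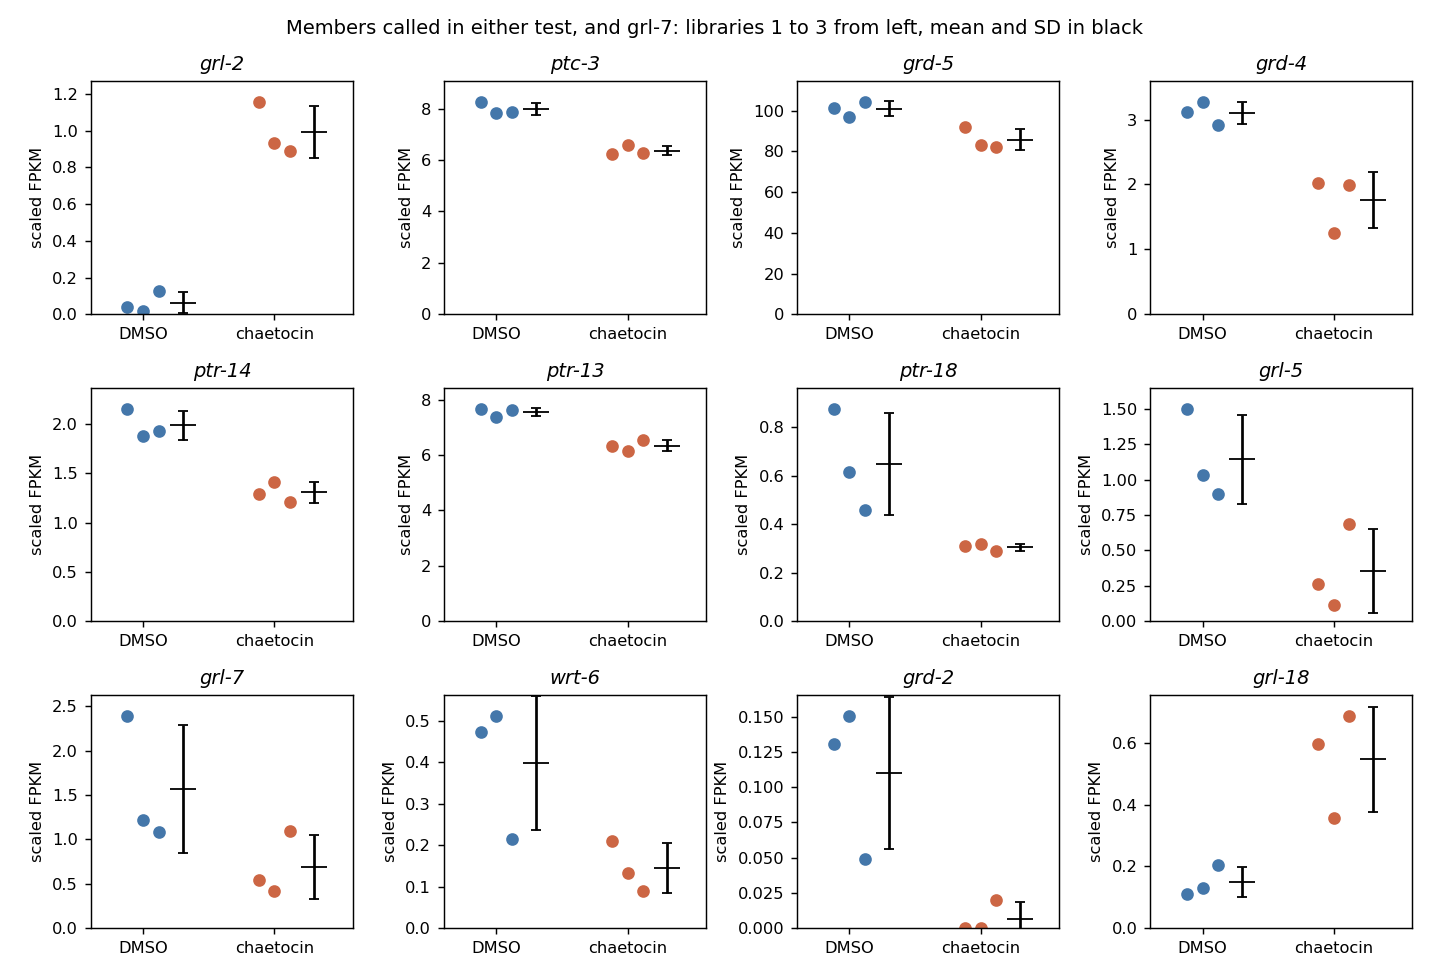
Scaled FPKM of the 11 members called by limma or in the authors' deposited table, and of grl-7. Points are libraries 1 to 3 from left to right in each group, with mean and SD (n = 3) beside them, and each panel starts at 0. In grl-2 and grl-18 the chaetocin points lie above the DMSO points, and in grl-7 the groups overlap.

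The other 40 members stayed below the filter and were not tested in the main comparison. They were 33 Hedgehog-related genes (10 grd, 19 grl and 4 wrt) and 7 ptr genes. In 15 of them, all Hedgehog-related, at least 1 library was listed at 0, and 0 members were at 0 in every library. A listing at 0 does not show that a gene is silent. Among the low genes are 2 members used as markers of glia. The first, ptr-10, had 0.352, 0.312 and 0.652 FPKM with DMSO and 0.358, 0.276 and 0.299 FPKM with chaetocin, which overlap. The second, grl-18, was at 0.111, 0.131 and 0.204 FPKM with DMSO and at 0.597, 0.358 and 0.688 FPKM with chaetocin, so that every chaetocin library was above every DMSO library. In a fit of all genes without a filter its log2 fold change was 1.36 (limma adjusted p = 0.0534). The gene next to the start of grl-18, T05C3.6 on the opposite strand, also named after its values were seen, rose from 8.11, 8.07 and 8.77 FPKM to 20.6, 21.7 and 22.3 FPKM (1.36 ± 0.06, adjusted p = 3.286e-05).

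The authors' deposited table of their own comparison holds 68 of the members, 44 Hedgehog-related and 24 patched-related, among 16062 genes. Its p-values behave as adjusted values, and its sign was turned so that positive means higher with chaetocin. At a deposited p under 0.05 the authors' table called 2 members higher and 7 lower, 13.2% of the 68, beside 9.06% of all its genes (5.57% higher and 3.49% lower). Log2 fold changes in the authors' deposited table were below 0 for 43 of the 68 members, beside 52.2% of all its genes. The higher members in the authors' deposited table were grl-2 (4.11 ± 0.68, p = 4.464e-08) and grl-18 (1.92 ± 0.51, p = 0.002745). The 7 lower members in the authors' deposited table were grd-2, grd-4, grl-5, wrt-6, ptr-13, ptr-14 and ptr-18, all chosen here after their values were seen.

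Of these 7, the authors' deposited table gave -1.76 ± 0.44 for grl-5 (p = 0.001374), -0.83 ± 0.28 for grd-4 (p = 0.0348), -0.61 ± 0.16 for ptr-14 (p = 0.002378) and -0.26 ± 0.07 for ptr-13 (p = 0.001559). The remaining genes were below the filter on FPKM. The levels of ptr-18, whose protein clears GRL-7, were 0.875, 0.613 and 0.458 FPKM with DMSO and 0.308, 0.317 and 0.289 FPKM with chaetocin, with no overlap (-1.09 ± 0.30, p = 0.0055 in the authors' deposited table). The levels of wrt-6 were 0.472, 0.513 and 0.214 FPKM against 0.209, 0.133 and 0.0898 FPKM, the closest pair being DMSO replicate 3 and chaetocin replicate 1 (-1.51 ± 0.40, p = 0.002833 in the authors' deposited table). The levels of grd-2 were 0.131, 0.151 and 0.0487 FPKM against 0, 0 and 0.0199 FPKM, so that its deposited difference rests on very few fragments (-4.16 ± 1.21, p = 0.008858 and a mean normalized count of 12.1 in the authors' deposited table). Neither ptc-3 (-0.33 ± 0.12, p = 0.06679) nor grd-5 (-0.24 ± 0.09, p = 0.1059) passed in the authors' deposited table. The single member called in both comparisons was grl-2. Within 15 kb of ptr-14, 1 of 5 tested coding genes was called, R09H10.5, and it was higher (0.82 ± 0.06, limma adjusted p = 0.0002049). Near wrt-6, 1 of 3 was called, glt-1, and it was lower (-0.31 ± 0.04, limma adjusted p = 0.002972). Both were named after their values were seen. For grd-2, grd-4, grl-5, ptr-13 and ptr-18, 0 tested neighbours were called, beside 8.45% of all genes tested.

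**Figure D5:**
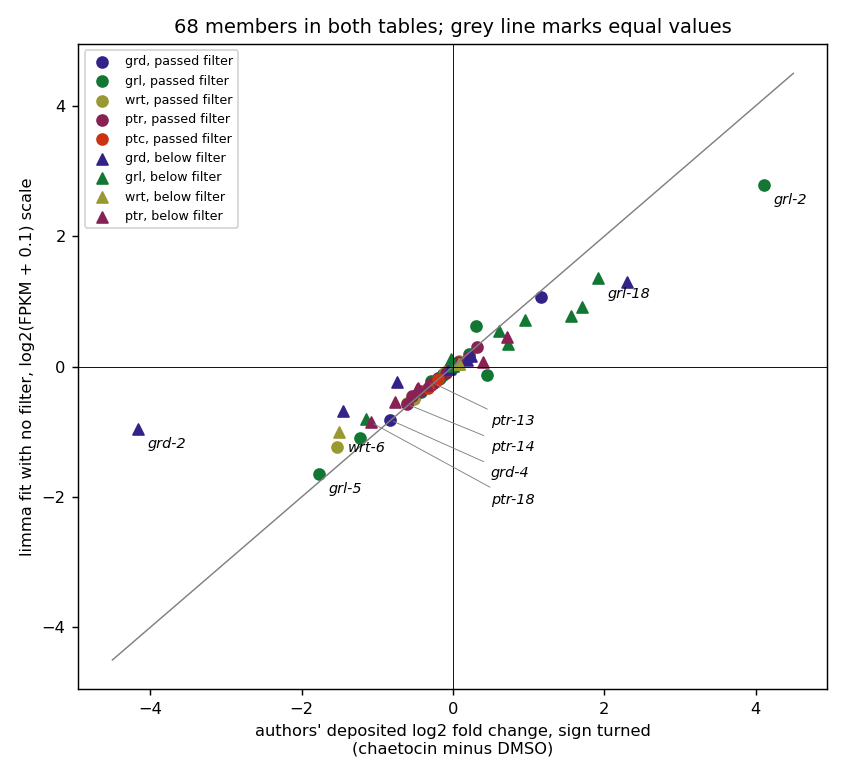
Log2 fold change of the 68 members in the authors' deposited table (sign turned, horizontal axis) and in the limma fit without a filter (vertical axis), coloured by family, with circles for members that passed the filter and triangles for those below it. Both axes come from the same 6 libraries. Members with low levels, such as grl-2 (4.11 and 2.79) and grd-2 (-4.16 and -0.95), lie farthest from the line of equal values.

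At the level of transcripts, 60 members had 1 transcript in the deposited table and 21 had several, 116 in all. Of the 47 that passed the filter, 1 rose and 0 fell by limma over transcripts, beside 3.18% of all transcripts called higher and 1.5% lower (4.68% in all). That transcript was the only one of grl-2 (2.80 ± 0.42, adjusted p = 0.01817). At an unadjusted p under 0.05, 8 member transcripts were lower and 1 was higher, beside 6.95% and 9.05% of all transcripts tested. The isoforms a and b of ptc-1, at 95.7, 85.9 and 76.1 and at 48.5, 53.3 and 43.3 FPKM as deposited with DMSO, were at 74.3, 68.2 and 78.9 and at 39.8, 45.8 and 42.8 FPKM with chaetocin (-0.20 ± 0.10 and -0.16 ± 0.10, adjusted p = 0.4165 and 0.5449). Isoform a was the more abundant in every library.

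Other genes of the pathway were taken from a list of 14, all found in the table, of which 12 were tested. By limma 0 were higher and 0 were lower, also at an unadjusted p under 0.05, and the authors' deposited table called 0 either way. Of all genes tested, limma called 8.45%, and 11.7% were higher and 8.78% lower at the unadjusted level. The authors' deposited table called 9.06% of all its genes. The median log2 fold change of the list was -0.11, and 9 of 12 were below 0, beside 50.1% of all genes tested. The gene hog-1, which encodes a protein with the autocleaving domain of Hedgehog, was at 0.658 ± 0.192 FPKM with DMSO and 0.557 ± 0.105 FPKM with chaetocin (-0.19 ± 0.28, adjusted p = 0.7695). The molting gene qua-1, which shares that domain, had 1.88, 1.53 and 2.02 FPKM against 1.63, 1.86 and 1.44 FPKM (-0.13 ± 0.17, adjusted p = 0.7363). For che-14, related to Dispatched, the protein that releases Hedgehog in flies, the values were 0.583, 0.543 and 0.535 FPKM against 0.378, 0.471 and 0.379 FPKM. These did not overlap, but the difference of -0.36 ± 0.22 did not pass (adjusted p = 0.4313).

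No sterol gene tested from the same list was called, nor was its transcription factor. The HMG-CoA reductase gene hmgr-1, which makes isoprenoid precursors, was at 45.2 ± 2.61 and 45.1 ± 0.436 FPKM (-0.0013 ± 0.05, limma adjusted p = 0.9908). The gene scp-1, a homologue of the SREBP cleavage-activating protein with a sterol-sensing domain, was at 22.6 ± 1.333 and 23.4 ± 0.227 FPKM (0.05 ± 0.05, adjusted p = 0.6755). The Gli homologue tra-1, which in C. elegans sets sexual fate, was at 14.03 ± 0.948 and 12.8 ± 0.538 FPKM (-0.13 ± 0.07, adjusted p = 0.3667).

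Because many members are expressed around molts, a list of 45 molting and cuticle genes was read beside them, of which 44 were found and 41 tested. By limma 1 rose and 2 fell, beside 5.53% of all genes tested called higher and 2.92% lower. Of the 41, 34 had a log2 fold change below 0 (median -0.13), beside 50.1% of all genes. The period homologue lin-42, which times molts, had 6.504, 5.88 and 4.96 FPKM with DMSO and 4.06, 2.90 and 2.65 FPKM with chaetocin, with no overlap (-0.85 ± 0.18, adjusted p = 0.0366). The cuticle collagen gene sqt-1 had 2.59, 2.69 and 1.40 FPKM against 0.478, 0.154 and 0.259 FPKM (-2.58 ± 0.39, adjusted p = 0.00756). The authors' deposited table called lin-42 lower (-0.86 ± 0.18, p = 7.759e-05) but not sqt-1 (-2.90 ± 1.34, p = 0.2168). Without a filter the limma adjusted p of lin-42 was 0.05586. The gene ifc-2, an intermediate filament gene of the intestine, rose from 68.6 ± 2.06 to 111 ± 3.29 FPKM (0.69 ± 0.04, adjusted p = 7.44e-05). The number of this list called lower ranged from 1 (without DMSO replicate 1, chaetocin replicate 2 or chaetocin replicate 3) to 5 (without DMSO replicate 3). The nuclear receptor genes nhr-23 and nhr-25, which drive molting, differed by -0.06 ± 0.05 and -0.20 ± 0.14 (adjusted p = 0.5689 and 0.5054). The 3 most abundant genes of the list not called were the collagen gene sqt-3 (-0.34 ± 0.13, adjusted p = 0.2213), nhr-23 and the astacin protease gene nas-37 (-0.08 ± 0.04, adjusted p = 0.4013).

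Markers of tissues that express the members were detected. Their counts stand beside 5.53% of all genes tested called higher, 2.92% called lower and 50.1% below 0. Of 9 epidermal markers tested 0 were called and all 9 were below 0 (median -0.25). All 10 epidermal markers listed, tested or not, summed to 2005, 2138 and 2079 FPKM with DMSO and 2060, 1899 and 1789 FPKM with chaetocin. Most of each sum was col-19, at 1971 ± 68.7 and 1820 ± 127 FPKM, named after its values were seen. The list shares elt-3, dpy-7 and rol-6 with the molting list, che-14 with the pathway list and col-19 with the adult stage list. Of 4 glial markers tested 0 were called and all 4 were below 0 (median -0.28). All 5 glial markers listed, tested or not, summed to 10.2, 11.8 and 9.73 FPKM with DMSO and 9.24, 7.60 and 8.23 FPKM with chaetocin. These sums did not overlap. The members ptr-10 and grl-18, also used as markers of glia, are not on that list. The groups of ptr-10 overlapped, and every chaetocin library of grl-18 was above every DMSO library. The glial list had 2 lower genes and the epidermal list 1 at an unadjusted limma p under 0.05, beside 8.78% of all genes. Of the further lists, 0 of 6 muscle and 0 of 6 neuronal markers were called. Of 5 intestinal markers tested 3 rose and 0 fell, and of 9 genes of the adult stage 1 rose and 2 fell. Below 0 were 5 of 6 muscle (median -0.089), 5 of 6 neuronal (-0.145) and 7 of 9 adult stage genes (-0.253). The counts were 2 of 5 for intestinal (0.283), 3 of 6 for excretory (0.049) and 4 of 8 for germline markers (-0.012). A majority below 0 was thus not limited to the epidermal and glial lists. No marker of these lists was at 0 in every library. The part of these tissues in the differences of the members was not tested.

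By position, 32 of the 81 members lie on chromosome V, where 19 of the 31 grl genes are. Both ptc genes lie on chromosome II, and 13 of 22 ptr genes lie on chromosomes I and II. Beside the rows described above, grl-28, grl-29, grl-30 and grl-31 follow one another on chromosome V with gaps of 2745, 1049 and 332 bases, and all 4 were below the filter. Of these grl-31, described after its values were seen, was the highest, with 1.02, 0.382 and 0.428 FPKM with DMSO and 0.308, 0.246 and 0.289 FPKM with chaetocin, and its groups did not overlap. The neighbours grl-9 and grl-8, chosen likewise, lie 136 bases apart on chromosome V at unequal levels, with means of 0.0617 and 1.31 FPKM over the 6 libraries.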

How the data were processed

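RNA of 6 libraries was compared, 3 with DMSO and 3 with chaetocin. The authors deposited FPKM per gene and per transcript, and per the submitters' processing notes the genome build was WBcel235 and the tools were RSEM 1.3.1, STAR 2.7.9a, Trimmomatic 0.36, FastQC 0.11.4 and MultiQC. The sources used here give neither annotation release nor strand setting. RSEM divides fragments shared by near-identical genes or isoforms by estimation. A further table deposited by the authors gives a mean normalized count, a log2 fold change with its standard error (a score) and a p-value. The deposited p-value was read as adjusted, because Benjamini-Hochberg adjusted normal p-values of fold change over error came to a median of 0.9903 of it. The sources used here do not name the software.

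Gene positions came from Ensembl release 115, in which all 81 members were found. Scaling of FPKM used the unweighted trimmed mean of log ratios to DMSO replicate 1 (30% of ratios and 5% of means trimmed at each end), a pseudocount of 0.1 was added, and limma 3.58.1 in R 4.3.3 with a variance trend was run on genes that reached 0.5 FPKM in 3 or more libraries. Tests were 2-sided. The fit was tested on simulated data. Alternatives were pseudocounts of 0.5 and 0.01, no filter, a filter of 1 FPKM, no scaling, median ratio scaling, a replicate block, no variance trend, each library left out, the authors' table and, added after seeing the data, each of the other 5 libraries as reference.

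The members, gene lists and settings were chosen with earlier results of these data known. Named genes are members past the threshold, the 3 most abundant of each family, and fixed genes of the families and lists. Genes named by position, closeness to the filter, a change of sign or membership of several lists are not marked. Any other gene is marked in the text as chosen later.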

Additional observations from a re-analysis of the deposited data

How the results depend on the processing

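Over 811 values of the 41 tested members under 20 alternatives, 783 kept their side of the threshold, 19 lost a call and 9 gained one. The sign changed in 24 values, of 12 members (grl-4, grl-10, grl-14, grl-16, grl-21, grl-26, grl-27, ptr-5, ptr-12, ptr-23, ptr-24 and wrt-10), and 0 of these were called in either fit. The other 29 members kept 1 sign under these alternatives. The Hedgehog-related genes called higher numbered 1 in the main comparison, 0 with a filter of 1 FPKM, which removes grl-2, and 2 in the authors' deposited table. Those called lower numbered 1 in the main comparison, 2 with a pseudocount of 0.5, 4 in the authors' deposited table, and 0 without a filter, without scaling, without a variance trend, with the replicate block and with chaetocin replicate 3 as reference. With 1 library left out they ranged from 0 to 1, the gene being grd-5 without chaetocin replicate 1 and grl-5 without chaetocin replicate 3. Patched-related genes called lower numbered 1 in the main comparison, 3 without a variance trend, 3 in the authors' deposited table, 0 with the replicate block and 0 to 1 with 1 library left out, the gene being ptc-1 without DMSO replicate 3. The cause of these shifts was not tested.

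The median of the Hedgehog-related genes, -0.185, was -0.084 without a filter, -0.083 in the authors' deposited table and -0.238 to -0.131 with 1 library left out. That of the patched-related genes, -0.181, was -0.134 with a filter of 1 FPKM, -0.230 in the authors' deposited table and -0.191 to -0.074 with 1 library left out. Molting genes called lower numbered 2 in the main comparison, 1 without a variance trend, 5 with the replicate block and 1 to 5 with 1 library left out. The median of all genes stayed between -0.016 and 0.0037 under every alternative.

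Same-numbered libraries of the 2 groups had correlated deviations of 0.106, 0.067 and -0.026, of which 2 were under 0.1, so the replicate number was not used as a pairing in the main comparison. The labels do not say whether the libraries were paired. The submitters' library names number some DMSO libraries otherwise than these replicate numbers, so same-numbered replicates need not match by name. DMSO replicate 2 and chaetocin replicate 3, which share a number in the names, gave -0.016. DMSO replicate 3 correlated best with chaetocin replicate 2 (0.078). With the replicate block the adjusted p was 0.1416 for ptc-3, 0.09094 for grd-5 and 0.02118 for grl-2, and 582 genes in place of 842 were called higher and 255 in place of 444 lower, and 274 to 510 were lower with 1 library left out. Depth per library is unknown, so no counting interval can be given, and members at low FPKM are measured least well.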

Other observations

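Chosen after their values were seen, several low members were high in chaetocin replicates 1 and 2 and near the DMSO level in replicate 3. The gene grd-6 was at 0.0804, 0.0301 and 0.204 FPKM with DMSO and at 0.826, 0.624 and 0.0599 FPKM with chaetocin. In grl-3 the values were 0.131, 0.0503 and 0.0682 FPKM against 0.269, 0.368 and 0.0698 FPKM, and in grl-6 they were 0.0704, 0.0704 and 0.136 FPKM against 0.299, 0.481 and 0.0998 FPKM. All were below the filter, and their groups overlapped. The same order of chaetocin libraries was seen in grd-14, described above.

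The library order of grl-16, high in replicate 1 and low in replicate 3 of both groups, was also that of 4 of the 15 cuticle collagen genes of the molting list (dpy-5, dpy-13, rol-8 and sqt-2), and of dpy-4 from another list. In 9 of the 15, among them dpy-7 and dpy-10, DMSO replicate 3 was instead the highest DMSO library, with dpy-10 at 9.72, 7.28 and 11.95 FPKM. The collagen gene dpy-13 was at 11.2, 7.39 and 0.974 FPKM with DMSO and at 11.8, 3.05 and 1.06 FPKM with chaetocin, and dpy-4 at 10.1, 7.44 and 1.64 FPKM against 12.5, 2.81 and 1.27 FPKM. In the collagen genes rol-6 and sqt-2 the chaetocin libraries were all below the DMSO libraries, at 2.25, 2.26 and 0.925 FPKM against 0.816, 0.266 and 0.140 FPKM and at 2.85, 2.79 and 0.857 FPKM against 0.627, 0.440 and 0.190 FPKM (limma adjusted p = 0.08539 and 0.07182). These genes were likewise chosen after their values were seen, and what they share with grl-16 was not tested.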
